A study of Rattus norvegicus with 10 samples.

Results

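miR-219 and miR-338 are the microRNAs most closely tied to oligodendrocytes, the glial cells that wrap axons in myelin. They were followed here as 6 mature names, miR-219a-5p, miR-219a-2-3p, miR-219a-1-3p, miR-219b, miR-338-3p and miR-338-5p, chosen by name from the 765 rat miRNAs of the deposited table. All 6 were found in it. The rats were of the Wistar strain and 10 weeks old, and small RNA of their hippocampus was sequenced. By their labels 5 libraries came from 2-VO rats, whose carotid arteries had been occluded on both sides, and 5 from rats with a sham operation. The occlusion is a model of a chronically low blood supply to the brain, and its duration is unknown here. Nothing in the labels tells whether a library stands for 1 animal or for a pool. The p-values therefore take the library as the unit, and part of the variation between libraries may be technical. The depth behind the values, worked out from their steps, was 13095384 to 13839174 reads in 2-VO and 13032805 to 13850400 reads in sham libraries.

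A microRNA is cut from a hairpin precursor, and either side of the stem, the 5p or the 3p arm, can be loaded into an Argonaute protein to repress messenger RNAs that pair with its seed, the bases near its 5′ end. In the mouse, miR-219 and miR-338 accumulate when oligodendrocyte precursors stop dividing and start to make myelin, and they repress genes that hold precursors back, such as Pdgfra, the receptor for platelet-derived growth factor, and the transcription factors Sox6 and Hes5. In the hippocampus the myelinated tracts are chiefly the alveus and the fimbria. In bulk tissue, fewer oligodendrocytes and less miRNA per oligodendrocyte cannot be told apart.

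The sequences below, from RefSeq's table for the rat build GRCr8, are shown because the reads of each row are assigned by them. Capitals mark the seed, bases 2 to 8. The 6 seeds differed from each other, and no other mature rat miRNA of that table had any of them.
miR-219a-5p: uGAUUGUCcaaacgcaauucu
miR-219a-2-3p: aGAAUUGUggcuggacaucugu
miR-219a-1-3p: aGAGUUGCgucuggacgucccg
miR-219b: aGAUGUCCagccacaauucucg
miR-338-3p: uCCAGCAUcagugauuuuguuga
miR-338-5p: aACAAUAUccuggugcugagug

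The precursors show which arm each row comes from. Capitals mark the mature arms, 5p first. The Mir219-2 hairpin (GRCr8 chr3:33516504-33516599, minus strand) lies within the span of Cercam, the Mir219a1 hairpin (chr20:4831580-4831689, plus strand) lies between the genes Hsd17b8 and Ring1, and the Mir338 hairpin (chr10:105796342-105796407, minus strand) lies within the span of Aatk, a kinase gene of the nervous system. The authors' build was rn6, and these positions are those of the RefSeq table.
Mir219-2: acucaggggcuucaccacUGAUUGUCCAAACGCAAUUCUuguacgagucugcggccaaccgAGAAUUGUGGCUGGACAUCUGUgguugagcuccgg
Mir219a1: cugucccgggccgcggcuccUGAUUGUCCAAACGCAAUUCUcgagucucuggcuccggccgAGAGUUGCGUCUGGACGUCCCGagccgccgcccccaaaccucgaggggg
Mir338: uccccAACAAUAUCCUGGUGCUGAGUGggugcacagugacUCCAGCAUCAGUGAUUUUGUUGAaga

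Both miR-219 hairpins carry the same 5p arm, so a read of miR-219a-5p cannot be assigned to either. Their 3p arms are distinct, with identical bases at 15 of 22 positions and at 5 of the 7 seed positions, and each has a row of its own. What the authors did with reads that match more than 1 place is unknown here.

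Of the miR-219 rows, the 3p arm specific to the Mir219-2 locus held the most reads. miR-219a-2-3p had 2702, 1839, 2345, 1715 and 1479 RPM (reads of the miRNA scaled by the authors to a common library total) in 2-VO replicates 3, 5, 6, 7 and 8, against 1769, 2011, 2161, 2606 and 2497 RPM in sham replicates 1 to 5. It ranked 47th by mean RPM among the 474 miRNAs tested, those that averaged 1 RPM or more. The highest and the lowest library were both in the 2-VO group, and the groups overlapped over most of their range.

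The 3p arm of the other locus was far lower and ranked 386th of the 474. miR-219a-1-3p had 3.28, 3.67, 5.32, 3.91 and 4.99 RPM in 2-VO replicates 3, 5, 6, 7 and 8, against 4.26, 5.12, 4.19, 5.33 and 3.68 RPM in sham replicates 1 to 5. These values stood for only 45 to 72 reads per library, so counting error is part of their spread. The groups overlapped. A miRNA listed at 0 in this table had fewer than 10 reads, and none of the 6 rows was at 0 in any library.

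The shared 5p arm lay between them. miR-219a-5p had 47.6, 49.8, 56.2, 31.5 and 29.8 RPM in 2-VO replicates 3, 5, 6, 7 and 8, against 23.7, 35.5, 43.7, 38.0 and 57.5 RPM in sham replicates 1 to 5. The sham group held both the highest and the lowest library. On the log2 scale its pooled within-group SD was 0.43, larger than that of 97.1% of the 339 miRNAs that averaged 10 RPM or more, whose median was 0.20. The SDs of miR-338-3p (0.40), miR-219b (0.33), miR-219a-2-3p (0.30) and miR-338-5p (0.28) were larger than those of 95.3%, 91.7%, 85.5% and 83.5% of these miRNAs. That of miR-219a-1-3p (0.21) was larger than 60.5%. This row averaged 4.37 RPM and is not one of the 339, so its share cannot be compared with the others.

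Both arms of miR-338 were present, and the 5p arm led. miR-338-5p had 519.6, 375, 431, 304 and 360.0 RPM in 2-VO replicates 3, 5, 6, 7 and 8, against 317, 429, 489, 501 and 489 RPM in sham replicates 1 to 5. miR-338-3p, the arm studied for its role in oligodendrocyte differentiation, had 173, 145, 122, 86.5 and 106 RPM in the same 2-VO libraries, against 72.6, 104, 135, 117 and 152 RPM in sham replicates 1 to 5. Both arms were highest in 2-VO replicate 3, and sham replicate 1 had the lowest miR-338-3p and nearly the lowest miR-338-5p.

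**Figure D1:**
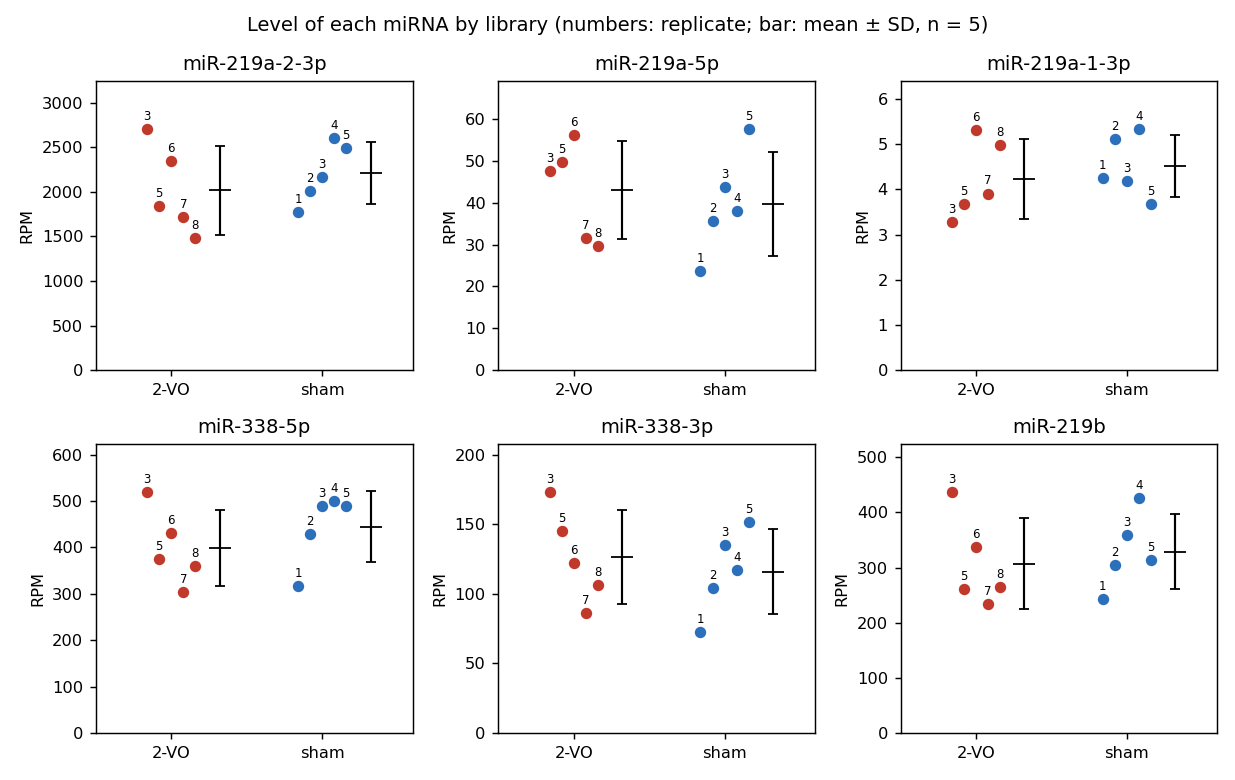
RPM (vertical axis, from 0) of the 6 miRNAs in the 5 2-VO libraries (red) and the 5 sham libraries (blue), with replicate numbers and the mean ± SD of each group. The groups overlap in each panel, and 2-VO replicate 3 is the highest library for miR-219a-2-3p, miR-338-5p, miR-338-3p and miR-219b.

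The order of the 6 rows was the same in 10 of 10 libraries, namely miR-219a-2-3p, miR-338-5p, miR-219b, miR-338-3p, miR-219a-5p and miR-219a-1-3p from high to low. The closest neighbours were miR-338-5p and miR-219b, with a ratio of 1.18 to 1.56. These are levels of reads per mature miRNA, with no division by length. Adapters join some small RNAs more readily than others, and how far this set the order was not tested.

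Reads of the miR-219b row could not be told apart from those of the strand opposite. Its precursor, Mir2964, lies on the other strand at the Mir219-2 locus, and the RefSeq windows of miR-219b and miR-219a-2-3p overlap by 20 bases with their ends shifted by 2. Read on the same strand, as below, the shared 20 bases, in capitals, are identical.
miR-219a-2-3p: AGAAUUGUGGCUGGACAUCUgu
reverse complement of miR-219b: cgAGAAUUGUGGCUGGACAUCU

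miR-219b had 437, 261, 337, 233 and 264 RPM in 2-VO replicates 3, 5, 6, 7 and 8, against 243, 304, 358, 425 and 313 RPM in sham replicates 1 to 5. That was 15.2% ± 1.76 of the miR-219a-2-3p level in 2-VO libraries and 14.9% ± 1.72 in sham libraries (SD, n = 5 each). The table shows what happens to other rows placed this way. Among 34 pairs of rows on opposite strands that overlap by 15 bases or more, with both rows among the 474, 8 share exactly the same window. In 8 of these 8 the log2 values of both rows differed by no more than 0.05 in any library. One such pair is miR-210-3p and miR-3574, both at a mean of 69.2 RPM. With shifted ends, 0 of 26 pairs did so. The mean of the lower row was 49.6% of that of the higher one at the median of 9 pairs shifted by 1 base. For 13 pairs shifted by 2 bases it ran widely, from 0.606% to 51.0%. Their median, 15.04%, is the miR-219b pair itself and so is no outside measure for it.

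**Figure D2:**
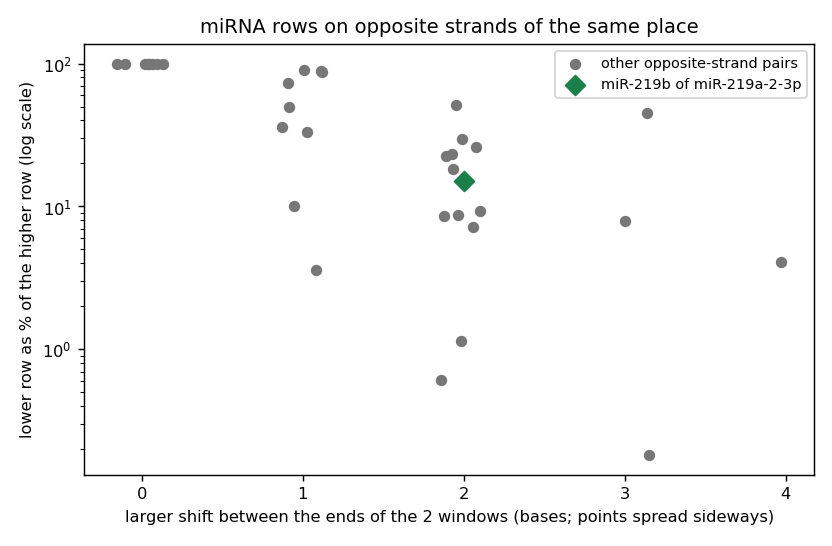
For 34 pairs of miRNA rows on opposite strands of the same place, the mean RPM of the lower row as a percentage of the higher (vertical, log scale) against the larger shift between the ends of their windows in bases (horizontal). The 8 pairs with no shift stand at or just under 100%, and miR-219b (green diamond, 15.04%) lies among the pairs shifted by 2 bases.

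Rows with the same window on opposite strands thus had equal values. Sense and antisense reads of the Mir219-2 locus cannot be told apart in this table, and the miR-219b row is not read below as a second, independent miRNA. The same geometry exists at Mir338, where the windows of miR-3065-5p and miR-3065-3p overlap miR-338-3p by 20 and miR-338-5p by 19 bases on the other strand. Their ends are shifted by 3 and 5 bases, and both rows were at 0 in 10 of 10 libraries.

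Set against sham, the 2-VO libraries address whether the miRNAs of myelinating cells differ in the hippocampus after carotid occlusion. No difference was detectable at this number of libraries. Of the 6 rows, 0 passed (limma's moderated test on log2(RPM + 1), smallest adjusted p = 0.896 over 474 miRNAs), and 0 had an unadjusted p under 0.05. Over all 474 miRNAs tested, 0 passed (0%), and 24 (5.06%) had an unadjusted p under 0.05, 20 of them (4.22%) with a lower level in 2-VO. Voom on whole reads also gave 0, with 25 unadjusted. An exact permutation test per miRNA gave 0, with 32 unadjusted. With so few libraries, the smallest p this permutation test can give would hardly pass after adjustment over 474 miRNAs. Its 0 therefore adds nothing to that of limma. The groups overlapped for 6 of the 6 rows; over all miRNAs they did not overlap for 3 (0.633%).

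miR-219a-2-3p averaged 2016 ± 497 RPM in 2-VO and 2209 ± 345 RPM in sham libraries (SD, n = 5 each), a fold change of 0.90 with a 95% interval of 0.712 to 1.14 on the scale of RPM + 1. For miR-338-5p the means were 398 ± 81.7 and 445 ± 77.1 RPM in 2-VO and sham libraries, a fold change of 0.892 (0.708 to 1.12). The fold changes of miR-338-3p, 1.09 (0.807 to 1.48), and of miR-219a-5p, 1.09 (0.784 to 1.51), lay on the other side of 1, and miR-219a-1-3p stood at 0.944 (0.759 to 1.17). The data therefore leave room for a change of about that size in either direction for each of the 5 rows.

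Single libraries decided the sign for 2 of them. Without sham replicate 1, which held the lowest value of both, the log2 fold change was -0.029 for miR-338-3p (0.13 with all libraries) and -0.043 for miR-219a-5p (0.12 with all libraries). Without 2-VO replicate 3 it was -0.27 for miR-219a-2-3p (-0.15 with all libraries), -0.27 for miR-338-5p (-0.16) and 0.0057 for miR-338-3p. It was nearer to 0 for miR-219a-2-3p without 2-VO replicate 8 (-0.049) and for miR-338-5p without 2-VO replicate 7 (-0.074). With each library left out in turn it ran from -0.27 to -0.049 for miR-219a-2-3p, from -0.28 to -0.074 for miR-338-5p, from -0.25 to -0.015 for miR-219b and from -0.16 to -0.015 for miR-219a-1-3p. With TMM factors, or scaled to listed reads, the 6 rows had the signs they have with all libraries.

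Other miRNAs with a known part in the oligodendrocyte lineage were also without a call. Of 16 chosen names 14 were tested, 8 were higher and 6 lower in 2-VO, and by limma 0 passed, with 0 unadjusted p under 0.05. Their median log2 fold change was 0.10, against -0.099 for the 6 rows and -0.051 for all 474 miRNAs. With either other scaling 10 were higher and 4 lower, since miR-9a-5p and miR-138-5p turned, and without 2-VO replicate 3 12 were higher and 2 lower. The remaining 2 names, both arms of miR-3065, were the ones at 0. The list is a mixed one, since some of its miRNAs promote myelination and others hold it back, and most are also made by other brain cells.

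The 4 of them with the smallest p were the following. miR-125a-3p, which restrains the maturation of oligodendrocyte precursors in rodents, averaged 10.6 ± 0.638 RPM in 2-VO and 12.8 ± 1.65 RPM in sham libraries (SD, n = 5 each; limma adjusted p = 0.76). miR-23b-3p, of a family that represses the lamin gene Lmnb1, whose excess damages myelin, averaged 1255 ± 83.8 and 1116 ± 84.6 RPM in 2-VO and sham libraries (limma adjusted p = 0.76). miR-19b-3p, of the miR-17-92 cluster that drives division of precursors in the mouse, averaged 19.6 ± 4.40 and 15.6 ± 4.90 RPM in 2-VO and sham libraries (limma adjusted p = 0.77). miR-212-3p, whose level falls as cultured rat precursors mature, averaged 109.9 ± 25.0 and 91.2 ± 13.8 RPM in 2-VO and sham libraries (limma adjusted p = 0.77). The groups overlapped for each of the 4.

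**Figure D3:**
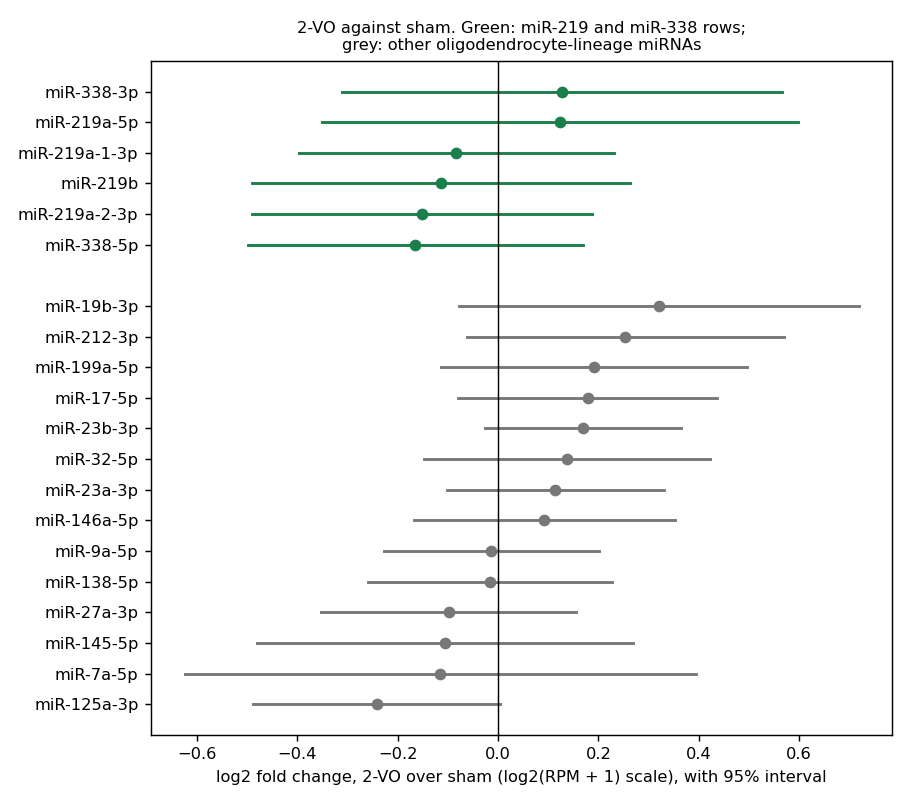
Log2 fold change of 2-VO over sham with its 95% interval (horizontal axis) for the 6 miR-219 and miR-338 rows (green) and for 14 other oligodendrocyte-lineage miRNAs (grey). Each of the 20 intervals crosses 0.

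The 2 rows that carry a 3p arm of miR-219 lay on opposite sides of the shared 5p row. Reads of miR-219a-2-3p outnumbered those of miR-219a-5p 47.9 ± 8.41 to 1 in 2-VO and 58.6 ± 13.0 to 1 in sham libraries (SD, n = 5 each). miR-219a-5p in turn had 10.5 ± 3.61 times the reads of miR-219a-1-3p in 2-VO and 9.14 ± 4.05 times in sham libraries. Since the 5p arm belongs to both hairpins, neither ratio is that of 1 hairpin alone, and arm use at each of these loci is not measured.

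At Mir338 the 5p arm led in 10 of 10 libraries. The ratio of miR-338-5p to miR-338-3p was 3.0, 2.58, 3.52, 3.51 and 3.38 in 2-VO replicates 3, 5, 6, 7 and 8, against 4.36, 4.13, 3.62, 4.27 and 3.22 in sham replicates 1 to 5. Sham replicate 5 lay inside the 2-VO range and the other 4 sham libraries above it. The 3p arm made up 22.1% to 27.9% of the reads of both arms in 2-VO and 18.6% to 23.7% in sham libraries.

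On the log2 scale miR-338-5p over miR-338-3p was 1.66 ± 0.190 in 2-VO and 1.95 ± 0.182 in sham libraries (SD, n = 5 each), a difference of -0.29 ± 0.12 (SE; 95% interval -0.55 to -0.037). The unadjusted p of 0.028 ranked 9th of the 160 hairpins with both arms kept, and it did not pass (limma adjusted p = 0.43). Among these hairpins 0 passed (0%), and 16 (10%) had an unadjusted p under 0.05, 8 of them (5%) with a lower ratio in 2-VO. For miR-219a-5p over miR-219a-2-3p the log2 ratio was -5.53 ± 0.257 in 2-VO and -5.80 ± 0.314 in sham libraries (difference 0.28 ± 0.15, SE; limma adjusted p = 0.55), and over miR-219a-1-3p it was 3.04 ± 0.489 and 2.84 ± 0.549 (difference 0.21 ± 0.26, SE; limma adjusted p = 0.79). Leaving out 1 library gave a difference of 0.19 to 0.37 for the first of these and of 0.055 (without sham replicate 1) to 0.41 (without sham replicate 5) for the second.

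**Figure D4:**
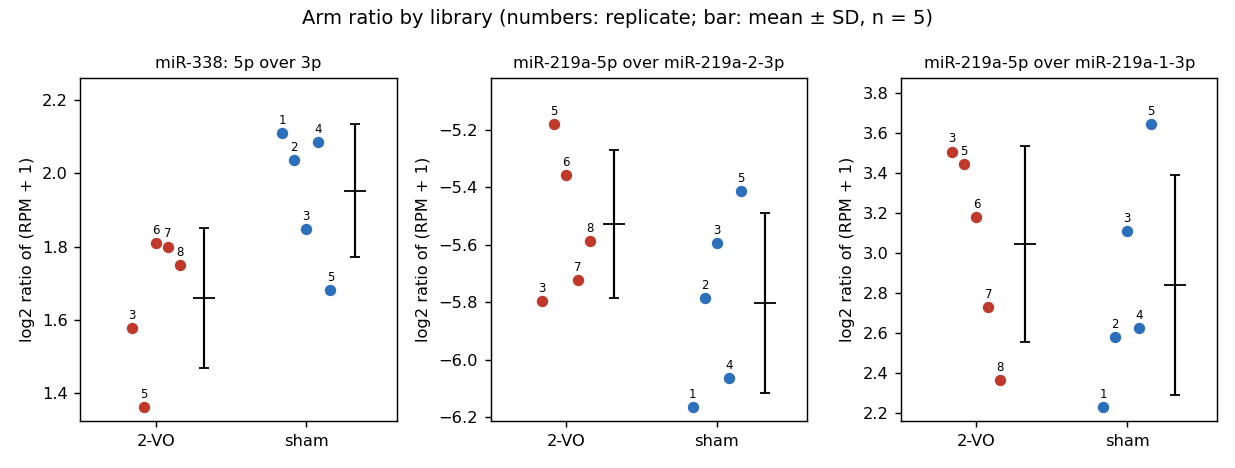
Log2 of the 5p over the 3p level (vertical axis, RPM + 1, not from 0) by library for miR-338 and for miR-219a-5p over each of its possible 3p partners, with the mean ± SD of the 2-VO (red) and sham (blue) groups. In the miR-338 panel 4 of 5 sham libraries lie above the highest 2-VO library, and the ratios of both miR-219a-5p panels overlap widely.

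Some of the 6 rows varied together from library to library, and 5 of their 15 pairs passed. Among these were miR-219b with miR-219a-2-3p and miR-219b with miR-338-5p, and miR-219b is not an independent miRNA here. The 15 pairs of the 6 rows were compared over 10 libraries on log2(RPM + 1), with two-sided permutation tests adjusted over the 15 pairs. miR-219a-2-3p and miR-338-5p, which come from different chromosomes, were closely related (Pearson's r = 0.86, permutation p = 0.0018, adjusted p = 0.0066; Spearman's rho = 0.95, permutation p = 0.00012). Without 2-VO replicates 3 and 8, the libraries farthest from the median of miR-219a-2-3p, r was 0.90. The libraries run from about 1479 RPM of miR-219a-2-3p with 360.0 RPM of miR-338-5p in 2-VO replicate 8 to 2702 with 519.6 RPM in 2-VO replicate 3.

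Another pair of a miR-219 and a miR-338 row was related in the same way. For miR-219a-5p and miR-338-3p r was 0.86 (permutation p = 0.0011, adjusted p = 0.0066; rho = 0.84, permutation p = 0.0034) and 0.74 without sham replicates 1 and 5, and the adjusted p was 0.061 without sham replicate 1. Both arms of miR-338, from the same transcript, had an r of 0.79 (permutation p = 0.0064, adjusted p = 0.019; rho = 0.76, permutation p = 0.014) and 0.64 without 2-VO replicate 3 and sham replicate 1. That call was lost without 2-VO replicate 3 (adjusted p = 0.069), 2-VO replicate 7 (0.058) or sham replicate 1 (0.093), with r between 0.71 and 0.74.

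Other pairs of miR-219 and miR-338 arms did not pass with all libraries. For miR-219a-2-3p and miR-338-3p r was 0.64 (permutation p = 0.047, adjusted p = 0.079; rho = 0.68, permutation p = 0.034) and 0.60 without 2-VO replicates 3 and 8. With values centred on their group means r was 0.73, past the threshold (exact permutation within groups, adjusted p = 0.0497). For miR-219a-5p and miR-219a-2-3p r was 0.67 (permutation p = 0.037, adjusted p = 0.077; rho = 0.66, permutation p = 0.043) and 0.61 without sham replicates 1 and 5. Centred on group means that pair had an r of 0.75 and miR-219a-5p with miR-338-5p an r of 0.77 (0.68 with values not centred, adjusted permutation p = 0.077), both past the threshold (exact permutation within groups, adjusted p = 0.049 each). Whether these coefficients differ from those of the pairs that passed was not tested.

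Of the 5 pairs that passed, 2 were with miR-219b, which shares the place of miR-219a-2-3p (r = 0.87 with it and 0.92 with miR-338-5p, adjusted permutation p = 0.0066 and 0.0051). Without sham replicate 1, 3 pairs passed, namely these 2 and miR-219a-2-3p with miR-338-5p. Over all 112101 pairs of the 474 miRNAs, 3687 (3.29%) had an r at or above 0.79, the lowest among the 5 pairs. The median r was 0.29, against 0.65 over the 15 pairs. The cut-off of 0.79 was taken from the pairs that passed, and the 474 miRNAs reach down to a mean of 1 RPM. The share is therefore a description and not a matched background. The 15 pairs are made of 6 rows and are not independent. miR-219a-1-3p, from the other locus, passed with 0 of the 5 other rows (r from -0.42 to 0.060, smallest unadjusted permutation p = 0.23), at a depth where counting error adds to its spread. All RPM values of a library share 1 divisor. After scaling to the listed miRNA reads r was 0.89 for miR-219a-2-3p with miR-338-5p and 0.86 for miR-219a-5p with miR-338-3p. No batch is given in the labels, and with 5 libraries a group no correlation was computed within a group.

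**Figure D5:**
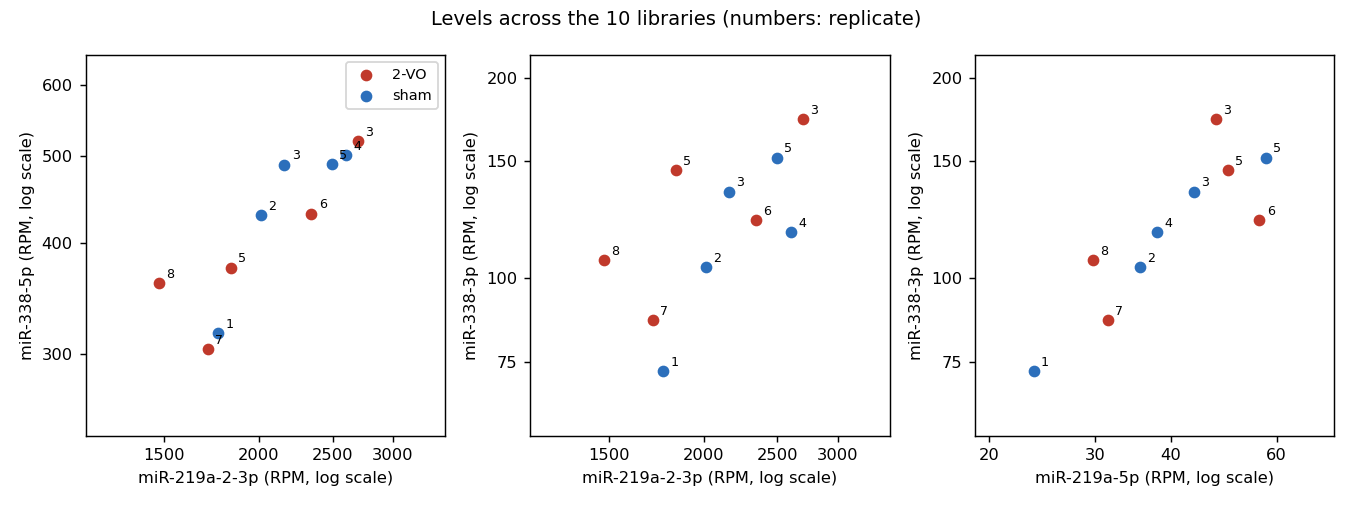
RPM of pairs of miRNAs in 10 libraries (log scales on both axes; red, 2-VO; blue, sham; numbers are replicates). The points rise together for miR-219a-2-3p and miR-338-5p and for miR-219a-5p and miR-338-3p (r = 0.86 each), with 2-VO and sham libraries mixed along the range.

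The miRNAs outside the 2 families with the most similar pattern, among 334 that averaged 10 RPM or more, are given as a description. For miR-219a-2-3p these were miR-21-5p (r = 0.84), miR-92a-3p (0.82), miR-25-3p (0.81), miR-181b-5p (0.80) and let-7b-3p (0.80). For miR-338-3p they were miR-181b-5p (0.88), miR-21-5p (0.88), miR-32-5p (0.85), miR-450a-5p (0.84) and miR-450b-5p (0.84). Scaled to the listed miRNA reads, 4 of the first 5 and 5 of the second 5 were again among the top 5. In the same ranking with members included, miR-338-5p was 2nd of 338 for miR-219a-2-3p, behind miR-219b. miR-219a-5p was 12th and miR-338-3p 16th. Scaled to the listed miRNA reads, miR-338-5p was 3rd, miR-338-3p 20th and miR-219a-5p 25th. For miR-338-3p, with values as deposited, miR-219a-5p was 3rd of 338, miR-338-5p 10th, miR-219b 23rd and miR-219a-2-3p 27th. After scaling to the listed miRNA reads they were 6th, 11th, 24th and 28th in that order.

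The 5 rows other than miR-219b summed to 1980 to 3446 RPM in 2-VO and 2186 to 3268 RPM in sham libraries, a 1.74-fold range over all 10. That was 0.266% to 0.571% of the listed RPM, with both ends in the 2-VO group (replicates 8 and 3), and miR-219a-2-3p made up 74.7% to 80.9% of the sum. How much white matter each piece of tissue held was not measured, and its part in this range was not tested.

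Markers of other cells were set beside this range. The astrocyte names include miR-23b-3p and the vessel names miR-145-5p, both also on the lineage list above. Neuronal miRNAs (6 names, led by miR-128-3p and miR-218a-5p) summed to 62543 to 85008 RPM in 2-VO and 72281 to 83594 RPM in sham libraries, 4 astrocyte-enriched names to 18629 to 23216 and 18812 to 24853 RPM, 5 microglia and leukocyte names to 315 to 412 and 360.2 to 406 RPM, and 4 vessel names to 15973 to 22630 and 18699 to 21179 RPM. The 4 red blood cell names summed to 84.9 to 219.7 and 131 to 157 RPM, the 4 choroid plexus names to 609.9 to 794 and 786 to 1942 RPM, and the 6 names of other regions and epithelium to 22.0 to 95.9 and 15.01 to 41.6 RPM. Of these 33 names only miR-223-3p, miR-200a-3p and miR-200b-3p were at 0 in any library. Across the 10 libraries miR-219a-2-3p was not related to any of the 7 sums at the threshold (r from -0.56 for red blood cell to 0.39 for choroid plexus miRNAs, adjusted permutation p of at least 0.58 over 7 relations). The value for red blood cell miRNAs was 0.78 without 2-VO replicates 3 and 8 and had a Spearman's rho of -0.12, so its sign rests on those libraries.

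2-VO replicate 3 was the highest or the lowest library in some of these sums. Its miR-219a-2-3p was also the highest, at 2702 RPM, close to the 2606 RPM of sham replicate 4. In 2-VO replicate 3 the miRNAs of other regions and epithelium summed to 95.9 RPM, against 15.01 to 56.6 RPM in the other 9 libraries. Of these 6 names, miR-200a-3p (21.9 RPM), miR-183-5p (18.9), miR-200b-3p (18.4), miR-182 (15.9) and miR-10b-5p (4.59) were highest in this library. miR-10a-5p was not, at 16.3 RPM within a 2-VO range of 9.01 to 29.9 RPM. 2-VO replicate 3 had a red blood cell sum of 84.9 RPM and a microglia and leukocyte sum of 315 RPM, below the others (131 to 219.7 and 341 to 412 RPM). It also had the lowest sum of listed miRNAs, 60.3% of its depth. The part of these differences in its miR-219 and miR-338 values was not tested. Without it r between miR-219a-2-3p and miR-338-5p was 0.84 (exact permutation, adjusted p = 0.027), the lowest of the 10 values with 1 library left out.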

How the data were processed

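Small RNA libraries were made with adapter ligation, amplification and gel selection by size after Trizol extraction, per the labels' protocols. Per the submitters' processing notes, bcl2fastq and BWA were used with the build rn6. Annotation, strand use and the treatment of reads with several matches are unknown here. The authors deposited RPM values for 765 miRNAs, per the file headers. The 4962 values above 0 were all whole numbers of reads, within 0.01 reads, at 1 divisor per library (13095384 to 13839174 reads in 2-VO and 13032805 to 13850400 in sham libraries), and the smallest stood for 10 reads. The listed miRNAs together made up 60.3% to 78.0% of this divisor, or 58.9% to 76.2% with the 8 pairs of equal opposite-strand rows counted once. The number of libraries limits the precision. No molecular identifiers are named, so PCR copies are counted as reads.

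log2(RPM + 1) of 474 miRNAs, those that averaged 1 RPM or more, was tested with limma 3.58.1 (R 4.3.3; mean-variance trend, two-sided, Benjamini-Hochberg, threshold 0.05), and likewise the 5p to 3p ratio of 160 hairpins. Rows with a locus number on 1 arm were paired with the row without it. Correlations used 100000 permutations with 10 libraries and exact ones with 9 or within groups (Python 3.11.15, scipy 1.17.1). The tests were tested on simulated data. Of the 765 names 690 matched RefSeq's miRNA table. Libraries carry the number in their title. Other settings changed the pseudocount, filter, scaling, test and block, or left out each library. No negative binomial model was run, because values under 10 reads are not listed. The miRNAs and lists were chosen with earlier results of these data known. The rule for named miRNAs took the 6 rows and the lineage list with the 4 smallest p. It also took the 5 most similar miRNAs of 2 rows. Added after their values were seen were miR-210-3p, miR-3574 and some marker names. Those marker names were at 0, led a list, belonged to other regions and epithelium, or were shared with the lineage list.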

Additional observations from a re-analysis of the deposited data

Results flagged for a closer look

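Of 58 groups of 5 values, 6 held a library whose gap to the nearest other library was above 0.71 of the range of its group, where chance gives about 1 in 20 groups, or 2.9. None of them was a miR-219 or miR-338 row or arm ratio. The 2-VO library of replicate 8 had the highest miR-212-3p (154 RPM, the other 4 at 91.0 to 104 RPM). 2-VO replicate 7 had the lowest miR-450a-5p (120.0 RPM, others 161 to 171 RPM) and the lowest miR-450b-5p (101 RPM, others 136 to 147 RPM), and miR-450b-5p was also lowest in sham replicate 1 (99.3 RPM, others 133 to 139 RPM); both were among the miRNAs most similar to miR-338-3p. Sham replicate 5 had the highest miR-19b-3p (24.2 RPM, others 12.4 to 14.9 RPM) and the highest choroid plexus sum (1942 RPM, others 786 to 1062 RPM).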

How the results depend on the processing

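Under the settings run, the 6 rows and the 3 arm ratios kept their signs and stayed short of the threshold, apart from the following. With the replicate block, which uses only the 2 numbers found in both groups, the log2 fold change was -0.043 for miR-219a-5p and 0.013 for miR-219b, and 8 of the 474 miRNAs passed, 0 of them among the 6 rows; the difference of miR-219a-5p over miR-219a-2-3p was 0.017. The fit has 1 residual degree of freedom, and deviations of libraries with the same number were not positively related (r = -0.058 and -0.18). With each library left out in turn, log2 fold changes ran from -0.043 to 0.27 for miR-219a-5p and from -0.029 to 0.25 for miR-338-3p. The number of hairpins past the threshold ran from 0 to 1 (1 without 2-VO replicate 3 and 1 without sham replicate 5). The correlation of miR-219a-2-3p with miR-338-3p ran from 0.53 to 0.74 and was 0.73 with group-centred values. The number of pairs past the threshold ran from 3 (without sham replicate 1) to 9 (without 2-VO replicate 5), and was 8 without sham replicate 4 or with group-centred values. Leaving out 1 library turned the sign for miR-219a-1-3p with miR-219a-2-3p (-0.36 to 0.16), miR-219b (-0.19 to 0.50) and miR-338-5p (-0.20 to 0.26). It did so for miR-219a-2-3p with the neuron (-0.48 to 0.11), astrocyte (-0.15 to 0.34), microglia and leukocyte (-0.42 to 0.21) and other-region (-0.19 to 0.43) sums. Scaled to listed reads and with TMM factors the neuron value was 0.10 and 0.094, and the microglia and leukocyte value 0.11 and 0.051. The settings for these sums were chosen after seeing the data. The planned edgeR test on whole reads was not run. Voom on those reads gave 0 calls and 25 unadjusted p under 0.05, and the exact permutation test per miRNA 0 and 32. The 0 of the permutation test was all but fixed by the small number of libraries. The causes of these changes were not tested. Depth limits miR-219a-1-3p alone among the 6 rows, at 45 to 72 reads.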
